A study of Mus musculus with 11 samples.

Results

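Metallothioneins and zinc transporters were followed in the livers of 5 FSH-treated and 6 saline-treated mice. The set held 8 genes, taken by symbol from the 36788 gene identifiers of the expression table: the metallothioneins Mt1 and Mt2, the metal sensor Mtf1, the zinc and manganese exporters Slc30a1 and Slc30a10, and the importers Slc39a4, Slc39a8 and Slc39a14. All 8 were measured in every liver and passed the expression filter (average level over the 11 livers of 0.5 CPM or more), as did 12733 genes in all. CPM is the number of reads on a gene for every 1000000 reads on all genes. The 8 genes were chosen from a comparison of these same FSH and saline livers, so their difference between the groups is given as a description, without a p-value. Where a member is said to stand past a threshold, this states how it stood in the same comparison that chose it and is no independent support.

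The labels describe the mice as wild-type C57BL/6 females more than 12 weeks old, whereas the study's methods give a mixed 129 × C57BL/6J background for its mice. All of them, controls included, had been ovariectomized (OVX) and fed a high-fat diet (HFD). The FSH group received daily injections of follicle-stimulating hormone, the pituitary hormone that acts on the ovary, and the other group received saline. The comparison therefore asks what added FSH changes in the liver of an animal without ovaries on this diet, and no intact or chow-fed group was analysed here. Mice are named by the numbers in the labels, which run 1, 2, 3, 4, 6 in the FSH group and 1 to 6 in the saline group, and each number is taken as a separate animal.

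Zinc inside a cell is held at a low free level by storage, export and import. Metallothioneins are small cysteine-rich proteins that bind zinc, copper and cadmium, and the liver is a main site of their production. When free zinc rises, the zinc-finger factor MTF-1 binds metal response elements in DNA and raises transcription of Mt1, Mt2 and Slc30a1. Glucocorticoids and interleukin-6 also raise metallothionein and, in the case of interleukin-6, the importer encoded by Slc39a14. Slc30a transporters move metal out of the cytosol and Slc39a transporters move it in.

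Each library held between 10801891 and 19909327 reads on genes, and 3 reads, the limit that a count of 0 allows, were worth 0.151 to 0.278 CPM. This limit covers counting error only. The 8 hepatocyte markers, Alb and Ttr among them, summed to 99997 to 118016 CPM with FSH and 96286 to 122659 CPM with saline. Hnf4a, a hepatocyte transcription factor, was lower with FSH (log2 fold change -0.44, limma adjusted p = 0.0369). In whole liver, fewer cells of a type and less RNA per cell cannot be told apart.

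The start regions of 4 genes are shown first, those of Mt2, Mt1 and Slc30a1 because they are known targets of MTF-1 and that of Slc30a10 to set beside them. Each line gives the 250 bases before and the first 30 bases after the start in RefSeq (GRCm38.p6), 5′ to 3′ on the gene's strand. Capitals mark matches to the metal response element core, searched as TGCACNC or TGCGCNC on both strands.

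Mt2 (chr8:94172368-94172647, + strand): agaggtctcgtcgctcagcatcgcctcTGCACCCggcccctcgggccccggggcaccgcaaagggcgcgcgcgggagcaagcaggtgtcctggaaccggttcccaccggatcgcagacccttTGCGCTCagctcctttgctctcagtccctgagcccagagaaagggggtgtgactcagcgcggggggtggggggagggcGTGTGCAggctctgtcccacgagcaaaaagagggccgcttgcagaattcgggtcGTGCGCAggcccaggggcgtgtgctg
Mt1 (chr8:94178839-94179118, + strand): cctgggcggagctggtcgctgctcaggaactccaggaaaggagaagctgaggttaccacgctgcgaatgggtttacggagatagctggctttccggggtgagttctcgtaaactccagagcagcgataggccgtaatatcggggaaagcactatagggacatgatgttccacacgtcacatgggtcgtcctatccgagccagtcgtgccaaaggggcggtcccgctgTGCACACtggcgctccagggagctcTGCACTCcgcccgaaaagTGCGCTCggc
Slc30a1 (chr1:191906531-191906810, + strand): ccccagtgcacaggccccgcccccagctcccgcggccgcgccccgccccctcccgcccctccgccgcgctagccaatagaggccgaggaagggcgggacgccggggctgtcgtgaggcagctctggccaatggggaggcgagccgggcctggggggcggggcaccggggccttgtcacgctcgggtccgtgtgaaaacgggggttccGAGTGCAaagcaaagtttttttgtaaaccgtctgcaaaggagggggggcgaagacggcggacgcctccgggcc
Slc30a10 (chr1:185454598-185454877, + strand): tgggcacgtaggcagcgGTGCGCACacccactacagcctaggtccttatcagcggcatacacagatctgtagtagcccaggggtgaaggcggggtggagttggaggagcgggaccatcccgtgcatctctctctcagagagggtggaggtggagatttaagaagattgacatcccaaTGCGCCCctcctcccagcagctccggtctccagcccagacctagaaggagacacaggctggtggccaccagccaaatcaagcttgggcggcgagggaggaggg

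The Mt2 window held 4 matches, at bases -223 to -217, -128 to -122, -50 to -44 and 5 to 11 from the start. The Mt1 window held 3, at -23 to -17, 3 to 9 and 21 to 27, so the matches of Mt1 lie around the annotated start. GENCODE M21 lists 3 Mt1 transcripts, 1 from base 94179082 and the others from 94179211 and 94179241, which places all of these matches upstream of the later starts. Its Mt2 transcripts start at 94172664 and 94172860, so all 4 Mt2 matches lie upstream of these starts. Slc30a1, the classic transporter target of MTF-1, held 1 match at -43 to -37. Slc30a10 held 3, of which those at -233 to -227 and -232 to -226 are overlapping readings of the same bases on opposite strands, and the other lay at -73 to -67. Of 32851 promoters in the table, 24.1% held at least 1 such match, 6.37% held 2 or more and 0.405% held 4 or more. Of the members, 6 of 8 were in that table. Mtf1 had 0 matches, and Slc39a8 had 1 in the window of the second of its listed starts. The same windows were searched for other short elements. AGAACA, a glucocorticoid response half-site, occurred in the Mtf1 window and in 17.8% of all promoters. TGACNNNGC, the antioxidant response element bound by NRF2, occurred in the windows of Mt2 and Slc30a1 and in that of the first Slc39a8 start, and in 11.5% of all promoters. TTCNNNGAA, the element bound by STAT factors, was found in 0 of the members' windows and in 7.83% of all promoters. These matches describe letters and are not evidence of binding. Bases outside the windows, such as those just before the later Mt1 starts, were not searched.

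The metallothioneins differed strongly between livers. Mt2 is found on chromosome 8 (GRCm38, bases 94172664 to 94173568), and Mt1 follows it on the same strand from 94179082 to 94180327, with 5513 bases between them. In the FSH livers 1, 2, 3, 4 and 6, Mt2 had 31.8, 26.3, 14.3, 8.46 and 27.8 CPM. In the saline livers 1 to 6, it had 107.7, 273.0, 43.8, 553.6, 51.9 and 22.9 CPM. The saline values thus spanned 24.2-fold, with mice 4 and 2 highest, and saline mouse 6 lay inside the FSH range. The FSH mean was 21.7 ± 9.89 CPM (SD, n = 5), against a saline mean of 175.5 ± 206.4 CPM (SD, n = 6). The log2 fold change, FSH minus saline on log2(CPM + 0.5), was -2.29 with a moderated standard error (SE) of 0.66. Every SE given here is the moderated one of limma, which borrows spread from all genes. For genes as variable as Mt2 and Mt1, it lies below that from the gene's own values.

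Mt1 had 157.1, 113.1, 93.7, 103.3 and 137.2 CPM in the FSH livers, in the same order of mice. In the saline livers it had 284.8, 459.9, 137.7, 922.9, 203.0 and 86.5 CPM. The FSH livers were within 1.68-fold of each other, the saline livers spanned 10.7-fold, and saline mouse 6 had the lowest value of all 11 livers. The log2 fold change was -1.11 (SE 0.45). The groups overlapped, and this difference was short of the adjusted p threshold of 0.05.

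**Figure D1:**
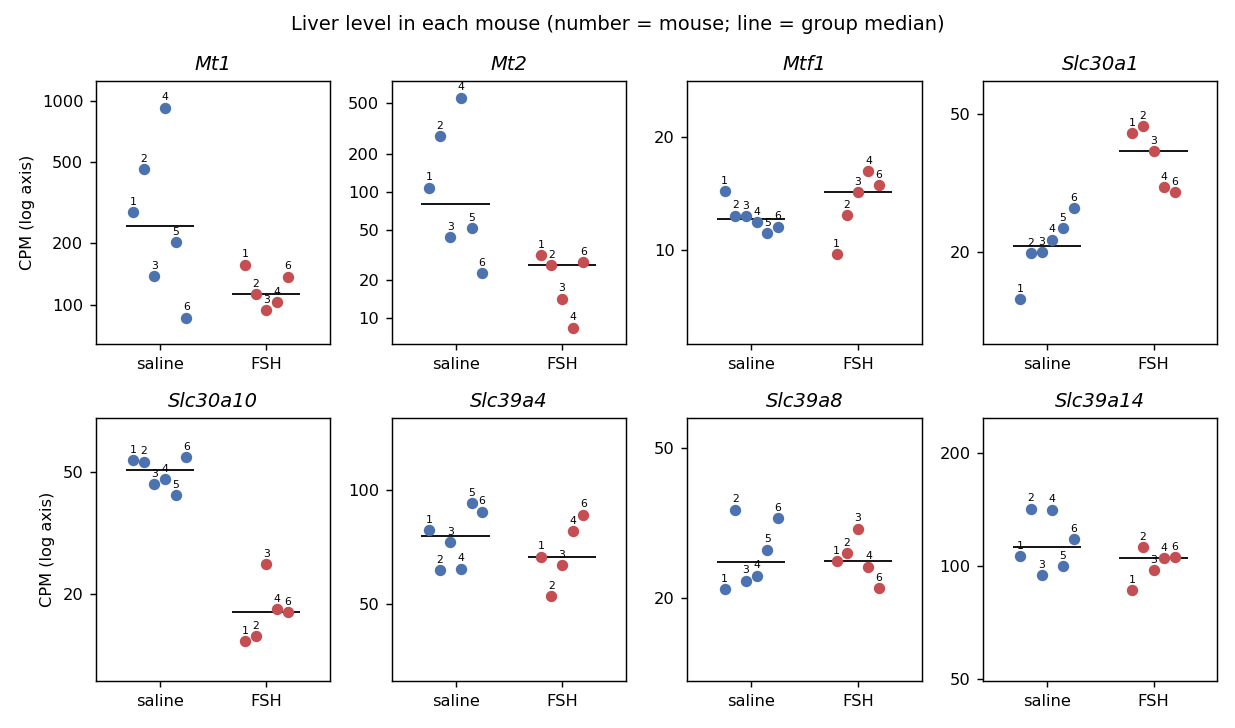
CPM (log axis) of the 8 genes in each liver, with saline mice in blue, FSH mice in red, the mouse number beside each point and a line at the group median. The groups are apart for Slc30a1 (29.8 to 46.1 CPM with FSH, 14.6 to 26.8 with saline) and Slc30a10 (14.0 to 25.0 with FSH, 42.2 to 56.0 with saline), while the saline livers are widely spread for Mt1 and Mt2.

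The spread of the metallothioneins among saline livers was near the top of all genes. The SD of log2(CPM + 0.5) over the 6 saline livers was 1.72 for Mt2 and 1.22 for Mt1, at the 99.9th and 99.6th percentile of the 12733 genes tested, whose median was 0.22. In the 5 FSH livers the SD was 0.78 for Mt2, still at the 98.8th percentile, and 0.30 for Mt1, at the 77.7th. The other members were unremarkable in this respect, with saline SDs from 0.12 for Mtf1 to 0.29 for Slc39a8. Without saline mouse 4, the saline SD of Mt2 was 1.36, so that mouse did not make the spread alone. The difference in spread between the groups was not tested. In saline mouse 4, the 5 erythroid markers summed to 1009 CPM, the highest of the 11 livers, against 464.2 to 790.0 CPM in the FSH livers. Its 8 hepatocyte markers summed to 96286 CPM, the lowest of the 11 livers. Its 5 stellate cell markers summed to 252.2 CPM, the lowest of the saline livers. The part of these differences in the metallothionein values was not tested.

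**Figure D2:**
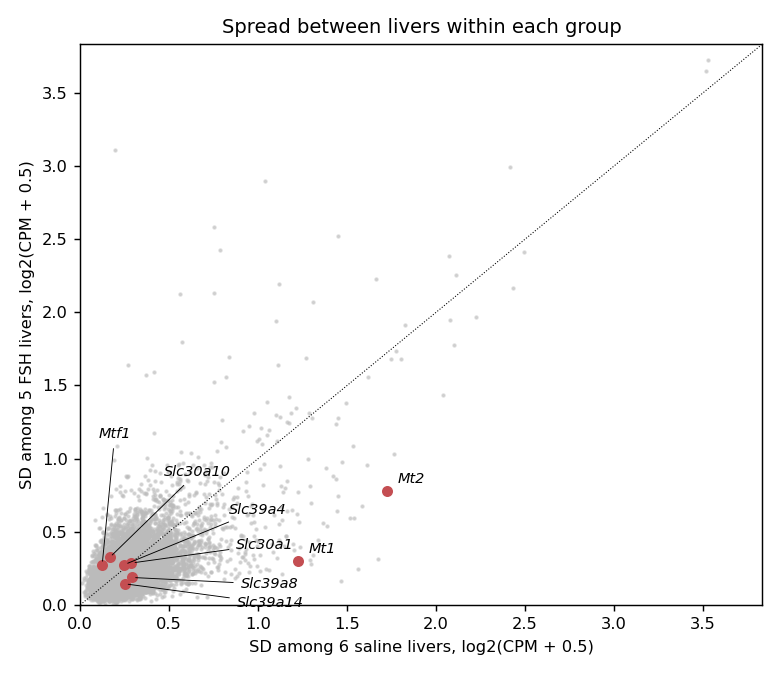
SD of log2(CPM + 0.5) among the 6 saline livers (x axis) and among the 5 FSH livers (y axis) for the 12733 genes tested (grey) and the 8 genes described here (red), with a dotted line where both are equal. Mt2 (1.72 and 0.78) and Mt1 (1.22 and 0.30) lie to the right of and below the line, and the other 6 genes lie within the mass of genes.

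Mt1 and Mt2 followed each other from liver to liver. The set and this test were chosen with earlier results of these livers known, so the p-values are no independent support. Over the 6 saline livers, log2 values of Mt1 and Mt2 had a Pearson r of 0.99 (exact permutation test, two-sided, p = 0.00278, 0.0194 after adjustment over the 7 relations of Mt2 with the other genes) and a Spearman rho of 1.0 (exact permutation p = 0.00278, adjusted 0.0194). Leaving out the saline mice with the most distant Mt2 values, 4 and 2, gave an r of 0.97 over the other 4. No other gene of the set passed this adjustment. Slc39a4 had an r of -0.84 with Mt2 (exact permutation p = 0.0472, adjusted 0.165; rho -0.66, exact permutation p = 0.175, adjusted 0.564), which was -0.33 without the same pair of mice and so rested on them. Slc39a14 had an r of 0.74 (exact permutation p = 0.114, adjusted 0.266; rho 0.60, exact permutation p = 0.242, adjusted 0.564), which turned to -0.38 without them. Mtf1 (r = 0.20), Slc30a1 (-0.34), Slc30a10 (0.03) and Slc39a8 (-0.14) had adjusted exact permutation values of 0.904 to 0.95 for r and 0.622 to 1.0 for rho. Without the same mice, r over the other 4 was 0.76 for Mtf1, -0.92 for Slc30a1, -0.05 for Slc30a10 and -0.84 for Slc39a8, so all of these but that of Slc30a10 depended on that pair. Sequences of 50 bases from the Mt1 and Mt2 transcripts were shared with 0 other genes, each other included.

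The ratio of Mt1 to Mt2 reads differed between the groups. It was 4.93, 4.30, 6.54, 12.2 and 4.94 in FSH mice 1, 2, 3, 4 and 6. It was 2.64, 1.68, 3.14, 1.67, 3.91 and 3.78 in saline mice 1 to 6. The lowest FSH ratio lay above the highest saline ratio, and within the saline group the ratio was lowest in the mice with most metallothionein, 4 and 2. The sum of both genes was 108.0 to 189.0 CPM with FSH and 109.3 to 1477 CPM with saline. This ratio was examined after the values had been seen and has no test.

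**Figure D3:**
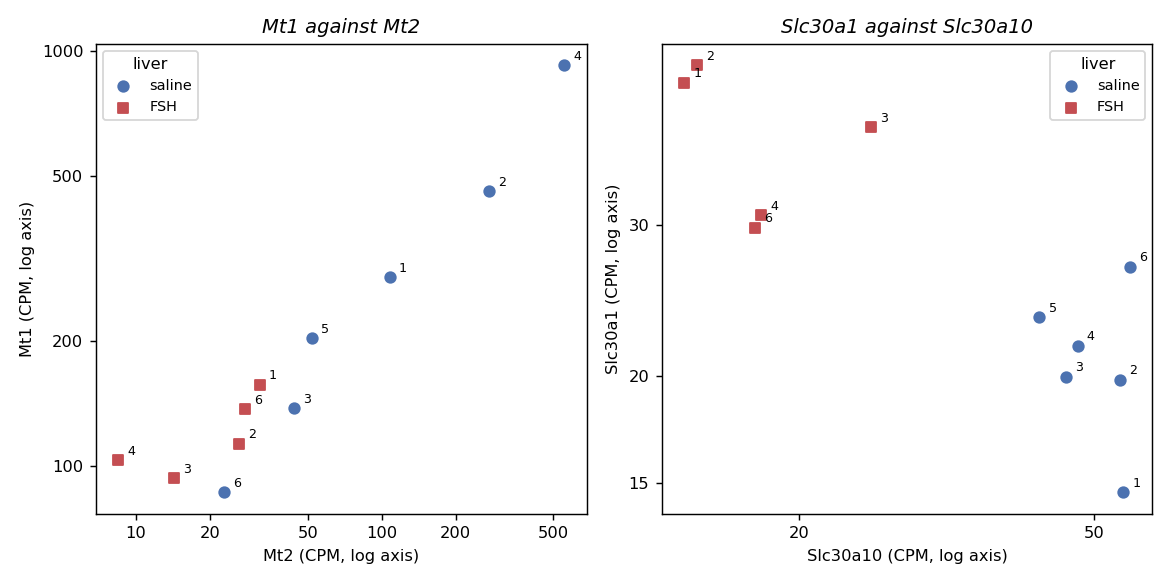
Level of Mt1 against Mt2 (left) and of Slc30a1 against Slc30a10 (right) in each liver, both axes CPM on a log scale, saline livers as blue circles, FSH livers as red squares and the mouse number beside each. Saline livers run along a rising line for the metallothioneins (r = 0.99 over 6 livers), and the right plot holds 2 separate groups.

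Mtf1, which encodes the metal sensor itself, was not past the adjusted p threshold, which does not show that its levels were equal. It lies on chromosome 4 from 124802104 to 124849800. Mtf1 had 9.79, 12.4, 14.3, 16.2 and 14.9 CPM in the FSH livers and 14.4, 12.4, 12.3, 11.9, 11.1 and 11.6 CPM in the saline livers. The FSH values lay on both sides of the saline values, and the log2 fold change was 0.12 (SE 0.12). Part of Mtf1 overlaps 1110065P20Rik on the other strand, a gene with 13.6 to 21.1 CPM with FSH and 19.4 to 25.2 CPM with saline. The use of strand in counting is not given in the sources used here, so reads from the overlap of this pair cannot be told apart.

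The exporters went in opposite directions. Slc30a1 encodes ZnT1, the plasma membrane zinc exporter, and lies on chromosome 1 from 191906767 to 191913247. It had 44.0, 46.1, 39.0, 30.8 and 29.8 CPM in FSH mice 1, 2, 3, 4 and 6. It had 14.6, 19.8, 19.9, 21.7, 23.4 and 26.8 CPM in saline mice 1 to 6. All 5 FSH livers were above all 6 saline livers, and the means were 37.9 ± 7.44 CPM (SD, n = 5) and 21.0 ± 4.09 CPM (SD, n = 6), a 1.80-fold ratio. The log2 fold change of 0.84 (SE 0.15) was past the adjusted p threshold and short of the fold-change threshold of 1 used by the study.

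Slc30a10 encodes ZnT10, a relative of ZnT1 that exports manganese from hepatocytes, and lies on the same chromosome from 185454848 to 185468762. It had 14.0, 14.5, 25.0, 17.8 and 17.4 CPM in the FSH livers. In the saline livers it had 54.8, 54.3, 45.8, 47.6, 42.2 and 56.0 CPM. The highest FSH liver, mouse 3, was far under the lowest saline liver, mouse 5. The means were 17.7 ± 4.39 CPM (SD, n = 5) and 50.1 ± 5.67 CPM (SD, n = 6), 2.83-fold lower with FSH, and the log2 fold change was -1.50 (SE 0.14). Antisense genes overlap both exporters. Gm2061, on the other strand of Slc30a10, had at most 1.05 CPM with FSH and 1.52 CPM with saline, and 1700034H15Rik, on the other strand of Slc30a1, had at most 0.124 CPM in any liver, far under the exporters' own values.

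The ratio of Slc30a1 to Slc30a10 combined these differences. It was between 1.56 and 3.17 with FSH (median 1.73) and between 0.267 and 0.555 with saline (median 0.446). Slc30a1 was thus the more abundant by CPM in every FSH liver and Slc30a10 in every saline liver. As CPM per kilobase of exon, Slc30a1 averaged 7.24 ± 1.42 with FSH (SD, n = 5) and 4.01 ± 0.78 with saline (SD, n = 6), and Slc30a10 averaged 3.04 ± 0.75 and 8.59 ± 0.97, so the order was the same per length.

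The importers lay close together in the FSH and saline livers. Slc39a14 encodes ZIP14, an importer of zinc, manganese and iron in hepatocytes, on chromosome 14 from 70303469 to 70351425. It had 86.4, 112.1, 97.4, 105.0 and 105.5 CPM with FSH and 106.5, 142.0, 94.8, 141.1, 99.9 and 118.1 CPM with saline, with the highest values in saline mice 2 and 4. Its log2 fold change was -0.20 (SE 0.12). Slc39a8 encodes ZIP8, which takes up manganese and zinc, on chromosome 3 from 135825279 to 135888572. It had 25.1, 26.3, 30.6, 24.3 and 21.3 CPM with FSH and 21.2, 34.4, 22.3, 23.0, 26.9 and 32.6 CPM with saline. Its FSH range lay inside its saline range, and the log2 fold change was -0.05 (SE 0.14). Slc39a4 encodes ZIP4, known as the importer of dietary zinc in the intestine, on chromosome 15 from 76612383 to 76617384. It had 66.7, 52.4, 63.4, 78.0 and 86.1 CPM with FSH and 78.3, 61.3, 73.0, 61.9, 92.7 and 87.8 CPM with saline, and the log2 fold change was -0.13 (SE 0.14). Of 5 intestinal epithelium markers, Cdx1 and Cdx2 were at 0 in all 11 livers and Vil1 had at most 0.613 CPM. Fabp2, a fatty acid binding protein, had 196.0 to 280.5 CPM with FSH and 152.0 to 223.2 CPM with saline (log2 fold change 0.29, limma adjusted p = 0.127), and Lgals4 had 6.51 to 10.3 and 5.42 to 20.7 CPM (-0.05, limma adjusted p = 0.93). The highest Lgals4 value was that of saline mouse 4, the liver with most metallothionein, and its part in the results was not tested. The 5 markers summed to 203.8 to 290.8 CPM with FSH and 158.9 to 244.2 CPM with saline, with saline mouse 4 the highest of its group. None of these 3 importers was past the adjusted p threshold, which does not show that their levels were equal.

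Across the set, 2 of 8 genes, Mt2 and Slc30a10, were past both thresholds of the study (adjusted p under 0.05 in limma and an absolute log2 fold change over 1), where 1.83% of all 12733 genes were. At the adjusted p alone, 1 of 8 was higher with FSH (Slc30a1), where 6.19% of all genes were, and 2 of 8 were lower (Mt2 and Slc30a10), where 4.41% were. The values of the groups did not overlap for 2 of 8 (Slc30a1 and Slc30a10), as was the case for 6.67% of all genes. Since the set was chosen from this comparison, nothing is read from these counts. The median log2 fold change was -0.16 for the 8 genes and 0.02 for all genes tested.

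How the members stood against these thresholds was also followed over 20 alternative analyses, as a description. Slc30a10 stayed past both thresholds and Slc30a1 past the adjusted p in all 20, and Mt2 stayed past both in 11. Slc30a10 kept a log2 fold change between -1.62 and -1.42, and Slc30a1 between 0.74 and 0.92. Mt2 fell short when any of FSH mice 1, 2, 3 and 4 or saline mice 1, 2 and 4 was left out, with log2 fold changes from -2.70 to -1.79 over the 11 leave-one-out fits, and its log2 fold change was -3.06 with edgeR and -3.05 with DESeq2. The value nearest 0, -1.79, was that without saline mouse 4. Mt1 passed both thresholds without saline mouse 6 (-1.43) and with DESeq2 (-1.57), and came nearest 0, at -0.75, without saline mouse 4.

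**Figure D4:**
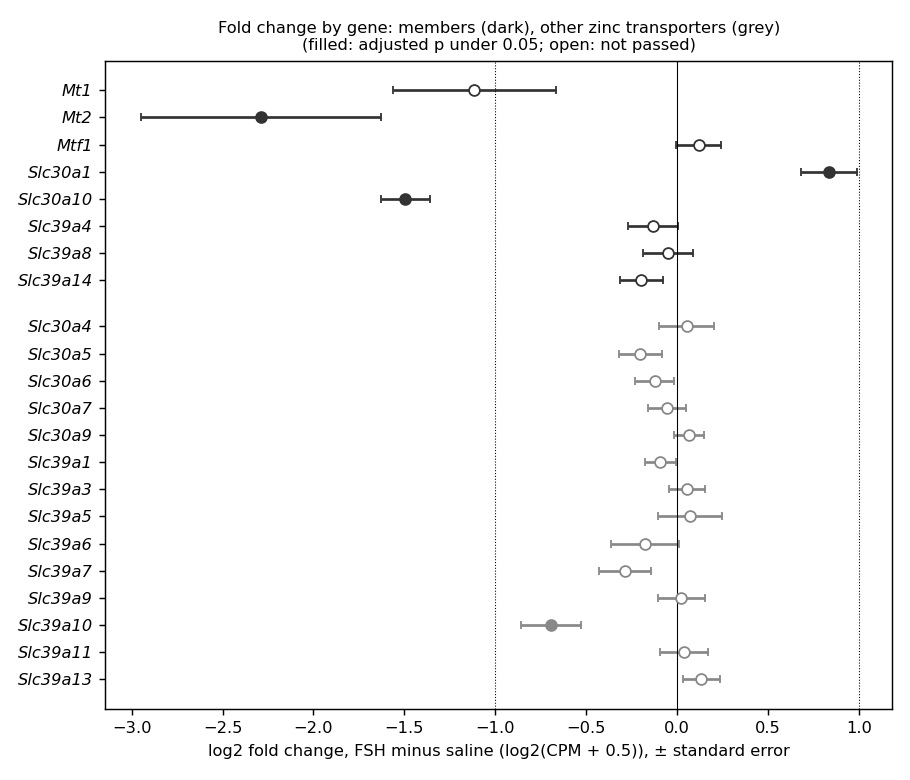
Log2 fold change (FSH minus saline, on log2(CPM + 0.5)) with its moderated standard error for the 8 genes (dark) and the 14 other zinc transporters tested (grey), filled where the adjusted p was under 0.05 in limma, with dotted lines at the fold-change threshold of 1. Mt2 (-2.29), Slc30a10 (-1.50) and Slc30a1 (0.84) are filled, and of the other transporters Slc39a10 (-0.69) is.

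By mean level per length, the metallothioneins led. As CPM per kilobase of merged exons, the order in the FSH livers was Mt1 (97.0 ± 20.8, SD, n = 5), Mt2 (37.0 ± 16.8), Slc39a4 (22.3 ± 4.21), Slc39a14 (9.60 ± 0.93), Slc30a1 (7.24 ± 1.42), Slc39a8 (3.33 ± 0.44), Slc30a10 (3.04 ± 0.75) and Mtf1 (1.52 ± 0.28). The ranges of Mt2 and Slc39a4, of Slc39a14 and Slc30a1, and of Slc39a8 and Slc30a10 overlapped between livers, although within a liver the first of each pair was the higher in 4, 4 and 3 of 5. In the saline livers the order was Mt2 (298.4 ± 351.0, SD, n = 6), Mt1 (280.2 ± 248.8), Slc39a4 (24.4 ± 4.19), Slc39a14 (11.1 ± 1.95), Slc30a10 (8.59 ± 0.97), Slc30a1 (4.01 ± 0.78), Slc39a8 (3.49 ± 0.73) and Mtf1 (1.38 ± 0.13). There, Mt2 and Mt1, Slc39a14 and Slc30a10, and Slc30a1 and Slc39a8 had overlapping ranges. Within a liver, Slc39a14 was above Slc30a10 in 6 of 6 and Slc30a1 above Slc39a8 in 5 of 6. The order of Mt2 and Mt1 by the mean rested on saline mouse 4, without which the means were 169.8 for Mt2 and 188.1 for Mt1. Mt1 was the higher per kilobase in 4 of 6 saline livers, with a median of 195.7 against 135.7 for Mt2. Merged exons of all annotated transcripts can be longer than the transcripts made in liver, which lowers the value of genes with many transcripts.

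Of the other zinc transporters and metallothioneins, 14 of 21 genes could be tested, 1 (7.14%) was lower with FSH and 0 were higher, near the 4.41% of all genes that were lower and 6.19% that were higher. The gene that was lower, Slc39a10, encodes the importer ZIP10, and it had 1.67 to 2.78 CPM with FSH and 2.82 to 5.16 CPM with saline, without overlap (log2 fold change -0.69, SE 0.16, limma adjusted p = 0.0142). The median log2 fold change of the 14 was -0.02. Of the 5 other exporters of the Slc30a family, 0 passed, and the smallest p belonged to Slc30a5 (-0.20, limma adjusted p = 0.319) and Slc30a6 (-0.12, limma adjusted p = 0.536), transporters of the secretory pathway. The 7 genes under the expression filter included the brain metallothionein Mt3 and the epithelial Mt4.

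Of 24 other genes of metal handling, 5 were lower with FSH and 0 were higher, against 4.41% and 6.19% of all genes, with a median log2 fold change of -0.02. Among the metal-response genes, Gclc, the catalytic subunit that limits glutathione synthesis, had 134.2 to 188.7 CPM with FSH and 225.8 to 474.1 CPM with saline (medians 169.8 and 317.8 CPM, limma adjusted p = 0.0013). Ndrg1, a stress-responsive gene, had 5.37 to 9.82 and 12.4 to 24.5 CPM (-1.20, limma adjusted p = 0.00076). The others were Sco2, a copper chaperone of cytochrome oxidase (-1.27, limma adjusted p = 0.00132), Steap3, a metalloreductase (-0.38, limma adjusted p = 0.027), and Slc11a2, the divalent metal importer DMT1 (-0.48, limma adjusted p = 0.00913). The hepatic copper genes Slc31a1 and Atp7b and the iron genes Hamp and Slc40a1 did not pass.

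Genes of other routes known to act on metallothionein or ZIP14 also differed in part, as 15 of 39 tested were lower with FSH and 2 were higher, where 4.41% of all genes were lower and 6.19% higher. Of 16 interleukin-6 and acute phase genes, 9 were lower and 0 higher, with a median log2 fold change of -0.47. Saa1 (-1.44, limma adjusted p = 0.00314), Lcn2 (-1.36, limma adjusted p = 0.0046), Saa2 (-1.19, limma adjusted p = 0.0101), Hp (-0.66, limma adjusted p = 0.00386), Apcs (-0.57, limma adjusted p = 0.0248) and Fgg (-0.49, limma adjusted p = 0.00562), all secreted proteins of the acute phase, were among them. Of 14 genes tested in the glucocorticoid list, which includes the receptor gene Nr3c1, 6 were lower and 0 higher, with a median of -0.90. They were Cdkn1a (-4.09, limma adjusted p = 1.78e-05), Zbtb16 (-2.62, limma adjusted p = 8.5e-05), Ppp1r3c (-1.91, limma adjusted p = 1.38e-05), Igfbp1 (-1.50, limma adjusted p = 0.0093), Klf9 (-1.03, limma adjusted p = 0.00226) and Angptl4 (-0.99, limma adjusted p = 0.0162). Of 9 genes tested in the NRF2 list, Nqo1 (0.80, limma adjusted p = 0.0012) and G6pdx (1.10, limma adjusted p = 0.0282) were higher and 0 were lower. That list includes Nfe2l2, which encodes NRF2, and Keap1, which encodes its repressor. Gclc, another NRF2 target, was counted with the metal-response genes and was lower with FSH. The part of these routes in the metallothionein and exporter values was not tested.

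Markers of other cells were measured beside these results. The 6 Kupffer cell and macrophage markers summed to 106.9 to 289.7 CPM with FSH and 173.7 to 347.6 CPM with saline, with 6 of 6 log2 fold changes below 0 and 0 past the adjusted p threshold in limma, with Clec4f (-0.67, limma adjusted p = 0.0818) and Csf1r (-0.60, limma adjusted p = 0.109) nearest. Single markers passed for sinusoidal endothelium (Lyve1, -0.63, limma adjusted p = 0.0121), adipocytes (Fabp4, -0.64, limma adjusted p = 0.0342) and cholangiocytes (Krt7, 0.69, limma adjusted p = 0.00731). The sums were 98.8 to 150.8 and 123.1 to 144.2 CPM for 5 endothelial markers, 226.0 to 288.7 and 252.2 to 318.3 CPM for 5 stellate cell markers, 47.6 to 69.4 and 38.3 to 55.7 CPM for 5 cholangiocyte markers and 4.21 to 8.78 and 8.70 to 14.8 CPM for 5 adipocyte markers, FSH first. Of the stellate cell markers, Colec11 (-0.16, limma adjusted p = 0.273) and Dcn (-0.17, limma adjusted p = 0.336) came nearest the threshold, and of the erythroid markers, Alas2 (-0.22, limma adjusted p = 0.444) and Hbb-bt (-0.08, limma adjusted p = 0.86). The adipocyte sum was almost wholly Fabp4 (4.21 to 8.59 CPM with FSH, 8.42 to 14.3 CPM with saline), since the adipocyte hormone Lep was at 0 in all livers and Adipoq, Plin1 and Cfd had at most 0.0926, 0.129 and 0.525 CPM. The 6 pancreatic acinar markers summed to 0.51 to 1.21 CPM with FSH and 0.166 to 0.685 CPM with saline, with Prss2, Pnlip and Cel at 0 in all livers and Cela2a, the elastase that alone passed the expression filter, at 0.453 to 1.16 and 0.166 to 0.685 CPM (0.69, limma adjusted p = 0.0641). The part of these cells in the results was not tested.

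The genes that moved most like the metallothioneins were ranked by their Pearson correlation with the mean log2 value of Mt1 and Mt2 over the 11 livers, after the mean of each group had been taken off. Of 11875 named genes, the 10 highest were Tmem35b (r = 0.91), Tyw1 (0.90), N4bp2l1 (0.88), Snx17 (0.88), Aasdh (0.87), Slc7a6os (0.87), Slc25a34 (0.87), Trib3 (0.87), Bcl2l1 (0.86) and Phf11c (0.86). Without saline mouse 4 their r lay between 0.73 (Trib3) and 0.89 (Tyw1). None belongs to the zinc genes described above. Within the set, Slc39a14 stood at place 383 (r = 0.57) and the other 5 genes had negative values, down to -0.57 for Slc39a4. Of the lists, the glucocorticoid list had the highest median r, 0.51 over 14 genes (0.35 without saline mouse 4). Its values ran from -0.62 for the receptor gene Nr3c1 to 0.77 for Fkbp5, an inducible cochaperone of the receptor. The median was 0.21 for the 16 interleukin-6 and acute phase genes (0.15 without saline mouse 4) and -0.11 for all genes tested (-0.07). Of the marker lists of other cells, 3 had a median above that of all genes. It was 0.28 for 5 erythroid markers, 0.35 for the 2 intestinal markers tested (Lgals4 at 0.71) and 0.35 for Cela2a, the 1 pancreatic marker tested, and these fell to -0.15, -0.03 and -0.01 without saline mouse 4. The other lists stood below it, with medians of -0.25 for Kupffer cell, -0.21 for endothelial, -0.46 for stellate cell and -0.18 for cholangiocyte markers, and -0.18 for Fabp4, the 1 adipocyte marker tested. All points share their libraries, and these values are descriptions without a test.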

How the data were processed

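Total RNA of whole liver was sequenced from 11 mice. The labels give a papain digestion before extraction, which was not otherwise described. Per the labels' processing notes, FastQC, cutadapt, Trim Galore, STAR and RSEM were used with the mm10 build. The annotation and the use of strand are not given in the sources used here. The authors deposited CPM values per Ensembl gene, with each library summing to 1000000. Values of each library were whole multiples of 1 read for 100% of genes (tolerance 0.01), which gave the read totals and the counts for edgeR and DESeq2. With the thresholds of the study, edgeR called 311 genes and DESeq2 320, against 233 by limma.

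Symbols were matched to the GENCODE M21 annotation of GRCm38 (1233 identifiers had none). Genes averaging 0.5 CPM or more entered the limma test (limma 3.58.1, R 4.3.3), run on log2(CPM + 0.5) values (eBayes with an intensity trend, Benjamini-Hochberg adjustment over 12733 genes). Alternatives were run with edgeR 4.0.16 and DESeq2 1.42.0, other pseudocounts, filters and scaling, no trend, a replicate block and leaving out each liver. The order of Mt1 and Mt2 per length without saline mouse 4 was added after seeing the data. The scripts were tested on simulated data. No pair of libraries of the same group agreed within sampling noise (lowest mean chi-square per gene 11.2). P-values of limma weigh the difference of group means against the spread between these livers. Those of the correlations come from permuting the pairing of values over the saline livers.

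The 8 genes, the lists and the tests were chosen with earlier results of these data known. Named were all 8 genes, from each list up to 6 genes with an adjusted p under 0.05 or else up to 2 with the smallest p, and the 10 genes most correlated with Mt1 and Mt2. Named outside this rule, after their values were seen, were markers at or near 0 and genes overlapping a member. So were unpassed copper, iron and low metallothionein genes, and Alb, Ttr, Fkbp5, Nr3c1, Nfe2l2 and Keap1. The promoters, 250 bases before to 30 after the start, are from RefSeq (GRCm38.p6).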

Additional observations from a re-analysis of the deposited data

How the results depend on the processing

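No result reversed among the alternatives run for the counts, the correlation, the spread and the called fold changes. The number of members past both thresholds was 2 in the analysis reported. It was 1 without the filter on low values, 1 without the intensity trend and between 1 and 3 when each liver was left out, and each loss was that of Mt2, while the 3 were reached without saline mouse 6, where Mt1 was added. The cause was not tested. The other zinc transporters past the adjusted p numbered 1 to 2 when each liver was left out, 2 of them without saline mouse 5. The correlation of Mt1 and Mt2 was 0.9791 to 0.9966 when each saline liver was left out, with an adjusted exact permutation p of 0.117, the smallest that 5 livers allow, so its loss of significance says nothing on stability. The log2 fold change of Slc39a8, which was not called, lay between -0.12 and 0.03. The lists of metal genes (4 to 7) and of other routes (12 to 20) stayed within 1.5 times of the values given.

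Mice with the same number need not be related. Their deviations from the group means correlated by 0.07, 0.36, 0.02, 0.14 and -0.07 for numbers 1, 2, 3, 4 and 6, so they were treated as sharing only a number. With the replicate block, 2 members were past both thresholds, with log2 fold changes of -2.47 for Mt2, -1.54 for Slc30a10 and 0.87 for Slc30a1, and the calls at the adjusted p went from 788 higher and 562 lower to 629 and 581. Median-ratio scaling gave 726 and 659. Depth did not limit the 8 genes, whose lowest value was 8.46 CPM (131 reads, Mt2 in FSH mouse 4).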
